A study of Mus musculus with 4 samples.

Results

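Open chromatin near 34 genes of fibroblasts, fibro-adipogenic progenitors and tendon cells was examined in 4 mouse muscles. The genes were chosen by name, as markers of the connective tissue that surrounds myofibres, and a peak was counted for a gene when the deposited annotation gave that gene as its nearest. Of the 34 genes, 32 had at least 1 peak in any muscle, among 17157 genes that did. They held 351 peaks, which were 93 of 30136 in EDL, 133 of 40337 in Quad, 77 of 28784 in Sol and 48 of 21582 in Dia. Fast, glycolytic fibres prevail in the extensor digitorum longus (EDL) of the lower leg and the quadriceps (Quad) of the thigh. Oxidative fibres prevail in the soleus (Sol) of the calf, while the diaphragm (Dia) contracts with every breath. All came from wild type C57BL/6 mice, male and of substrain C57BL/6J by the study's methods, and the samples used here carry no label for age, exercise or drug treatment. ATAC-seq, the assay used, lets the transposase Tn5 tag DNA that nucleosomes do not cover, so that sequenced ends pile up at accessible sites. For each muscle 1 list was analysed, made from a library whose label calls it pooled, so no separate replicates and no p-values between muscles are given, and each difference describes these libraries.

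Skeletal muscle holds resident stromal cells between and around its fibres. Fibro-adipogenic progenitors are mesenchymal cells that carry PDGFRA, SCA-1 (the product of Ly6a) and CD34, deposit matrix after injury and can become adipocytes or fibroblasts. Tendon and myotendinous cells express Scx and Mkx, transcription factors of the tendon lineage, and their target Tnmd. In a preparation of whole muscle their nuclei are mixed with those of myofibres, endothelial cells and others. A smaller number of nuclei of one type and a lower accessibility per nucleus therefore cannot be told apart, and a peak near a gene is neither a count of cells nor a measure of transcription.

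Each list ends at its own threshold. The peak score is a tag count scaled by library size. From its steps the libraries held between 78.1 M tags in Quad and 105 M in Sol (M, mega), assuming scaling to 10 M tags, and the lowest-scored peaks held between 25 tags in Quad and 36 in Dia. The Quad library was thus the shallowest and gave the longest list, and Dia, with 99.3 M tags, the shortest. Where a list lacks a peak, accessibility may still lie under its threshold.

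Most stromal genes had an open region somewhere near them, while fewer had one at the promoter. At least 1 peak was annotated to 28 members in EDL, 31 in Quad and 22 in Sol, with 21 in Dia. As a share of the 32 members with any peak these were 87.5%, 96.9%, 68.8% and 65.6%, against a background of 81.5% of all such genes for EDL, 90.8% for Quad, 81.4% for Sol and 75.3% for Dia. The order of the members against the background depended on list length. In lists cut to the 20000 highest-scored peaks, 20 members had a peak in EDL (62.5%, background 67.3%), 18 in Quad (56.2%, background 67.2%), 19 in Sol (59.4%, background 68.2%) and 20 in Dia (62.5%, background 72.5%). A peak in every muscle was found for 17 members (53.1%, background 65.1%). Promoter peaks, from 1 kb before a transcription start site (TSS) to 100 bp after it in the annotation, were found for 12 members in EDL, 15 in Quad and 11 in Sol, with 9 in Dia. These were 37.5%, 46.9%, 34.4% and 28.1% of the 32 members, against 51.8%, 56.8%, 51.5% and 50.5% of all genes with a peak, so the members were below the background in each muscle. The promoters of 7 members, Tcf7l2, Tcf4, Osr2, Ebf1, Ebf2, Fn1 and Gsn, had a peak in all 4 lists (21.9%, background 40.8%). Of all 34 members, 15 had no promoter peak in any list, among them Tnmd and Lum, which had no peak. No share over all genes was computed for this count.

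**Figure D1:**
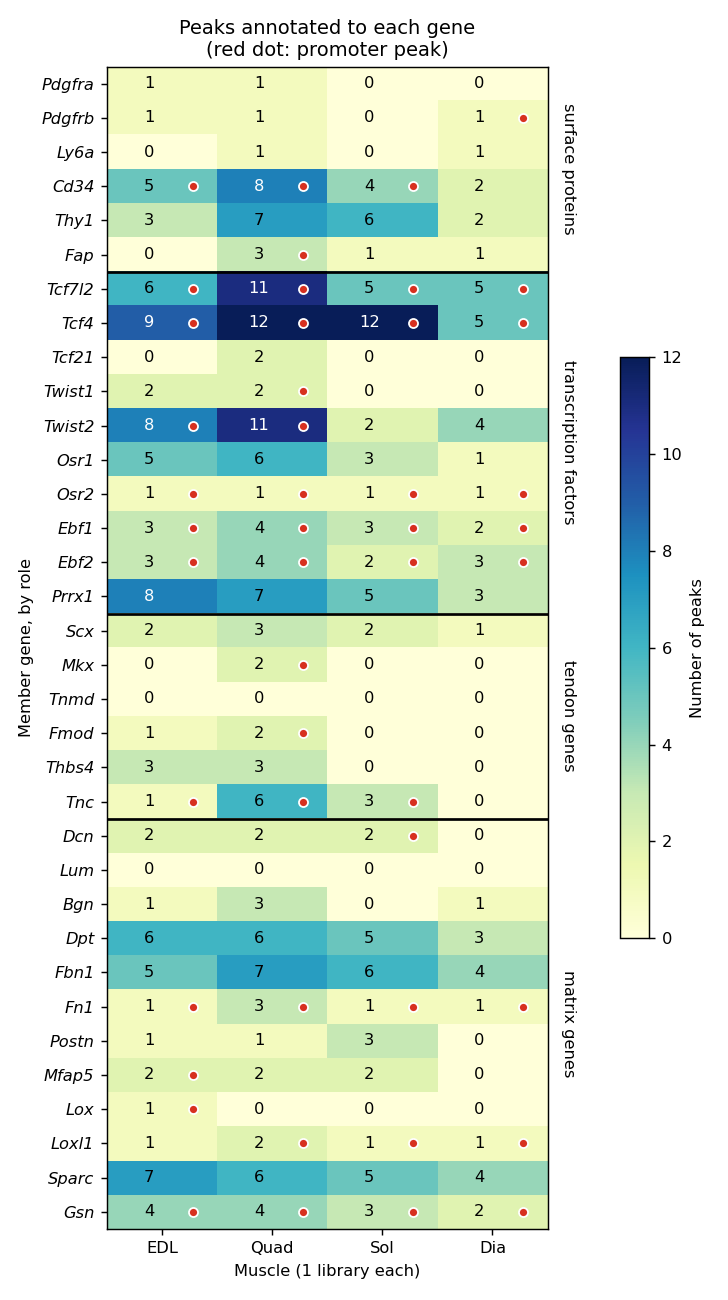
Number of ATAC-seq peaks annotated to each of the 34 members (rows, ordered by role) in each muscle (columns, 1 library each), with a red dot where at least 1 of them was a promoter peak. Quad had the most peaks, alone or tied, for 28 of the 32 members with a peak. Dia had the fewest, alone or tied, for 26. Quad also had the longest list and Dia the shortest, and no share over all genes was computed for these counts. Tnmd and Lum had no peak.

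Among the 6 surface proteins, the markers Pdgfra and Ly6a had 2 peaks each over the 4 lists, while Cd34 had 19. Pdgfra, the receptor for PDGF-A that defines these cells, had 1 peak in EDL at -3221 bp from its TSS and 1 in Quad at -8212 bp, and none in Sol or Dia. Their scores lay at percentile 35.7 of the EDL list and percentile 2.35 of the Quad list. Ly6a, which encodes the stem cell antigen SCA-1, had 1 peak in Quad at percentile 7.89 and 1 in Dia at percentile 2.92. No peak of either gene was a promoter peak, and neither gene had a peak shared between lists. Pdgfrb, the receptor also carried by pericytes, had 1 peak each in EDL, Quad and Dia in 3 separate regions, of which the Dia peak was at the promoter (percentile 32.7). Fap, a cell-surface protease of activated fibroblasts, had 3 peaks in Quad and 1 each in Sol and Dia. A Fap promoter peak was annotated in Quad alone (percentile 49.4), and the Dia peak overlapped the same region at percentile 9.72 without being annotated as a promoter.

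Cd34 and Thy1 had the most peaks of this group. Cd34 encodes a sialomucin that is also present on endothelial cells, and it had 5 peaks for EDL, 8 for Quad, 4 for Sol and 2 for Dia. Its promoter peak was at percentile 43.2 in EDL, 57.9 in Quad and 53.7 in Sol, and was not called in Dia. The regions at -52928 bp and -8760 bp were called in all 4 lists. In the first of these, Dia had the highest percentile (58.4), ahead of EDL (56.1), Quad (53.3) and Sol (38.2). In the second the order was Quad (60.1), EDL (57), Sol (50) and Dia (25). Dia thus had a peak at both distal Cd34 regions and none at the promoter. Thy1 encodes a surface glycoprotein of fibroblasts and nerve cells. Of its 18 peaks, 17 were annotated as intergenic and 1 as lying at the transcript end. EDL had 3 of them, Quad 7, Sol 6 and Dia 2. Its highest-scored peaks formed a pair of regions 142 bp apart, at -58943 bp and -58544 bp from the TSS, the first called in Quad (percentile 75.8) and Sol (86.1) and the second in EDL (77.1) and Dia (63.5). All 4 muscles therefore had a high-scored Thy1 peak at this place, although no single merged region of Thy1 held all 4 lists.

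Both Cd34 sequences below are reference sequence (GRCm38.p6, forward strand) under a peak. The first is the shared region of the surface genes with the highest mean percentile, in its Dia peak, and the second the highest-scored Cd34 region outside exons that was called in 1 muscle only, in intron 1 in Quad (percentile 36.4, 2737 bp from the nearest peak of another list). Capitals mark a match to a searched motif, here an AP-1 site in the shared region. The Quad region held none of the 6 motifs searched.
Cd34, chr1:194885764-194885996: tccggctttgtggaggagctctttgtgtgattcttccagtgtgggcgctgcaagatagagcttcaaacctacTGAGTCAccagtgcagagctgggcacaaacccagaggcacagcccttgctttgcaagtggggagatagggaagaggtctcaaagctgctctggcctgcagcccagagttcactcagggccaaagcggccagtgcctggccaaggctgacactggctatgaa
Cd34, chr1:194941706-194941894: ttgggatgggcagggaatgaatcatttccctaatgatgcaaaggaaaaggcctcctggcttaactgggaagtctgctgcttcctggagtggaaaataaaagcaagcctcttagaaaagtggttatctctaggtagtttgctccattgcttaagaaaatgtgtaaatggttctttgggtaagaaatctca

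The 10 transcription factors of mesenchymal cells carried the most peaks, 45 for EDL, 60 for Quad, 33 for Sol and 24 for Dia. These numbers were not set against the space around each gene. Tcf4, Tcf7l2, Twist2, Prrx1 and Osr1 each reached at least 5 peaks in a list. Tcf4 encodes the helix-loop-helix protein E2-2, which is widely expressed. It had 9 peaks in EDL, 12 in Quad and 12 in Sol, with 5 in Dia, the highest total of any member (38), along a gene of 345724 bp. Tcf7l2 encodes the HMG-box protein that the muscle literature also calls TCF4, a marker of connective tissue fibroblasts. It had 6 peaks for EDL, 11 for Quad, 5 for Sol and 5 for Dia. The promoter of Tcf4 lay between percentile 67.1 in EDL and percentile 76.4 in Quad, and that of Tcf7l2 between percentile 70.2 in EDL and percentile 85.9 in Quad.

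Twist2, a repressor of mesenchymal differentiation, differed most in number between muscles of this group, with 8 peaks in EDL, 11 in Quad and 2 in Sol, with 4 in Dia. Only EDL and Quad had a Twist2 promoter peak, at percentile 0.654 in EDL and percentile 15 in Quad, close to the lower end of either list. One Twist2 region, at 22205 bp from the TSS, was called in all 4 muscles, at percentiles from 37 in EDL to 54.5 in Quad. A Twist2 peak did not always lie near Twist2. Of its 25 peaks, 3 in the EDL list, 4 in that of Quad and 1 each in Sol and Dia lay in the body of Hdac4, up to 184452 bp from the Twist2 start. Its relative Twist1 had 2 peaks in EDL and 2 in Quad and none in Sol or Dia. One in each lay within Hdac9, and the promoter peak was called in Quad alone (percentile 28).

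Prrx1 marks limb mesenchyme, and it had 8 peaks in EDL, 7 in Quad and 5 in Sol, with 3 in Dia. No list had a Prrx1 promoter peak. Its 3 Dia peaks were at the 3 regions that all lists shared. These lay at -25109 bp, 31766 bp and 87106 bp from the TSS, with mean percentiles over the 4 lists of 69.2, 52.2 and 72.9. The remaining 6 Prrx1 regions had mean percentiles of at most 33. Osr1, which marks embryonic fibro-adipogenic progenitors, had 5 peaks for EDL, 6 for Quad, 3 for Sol and 1 for Dia, all of them intergenic. A single region 324179 bp downstream of its TSS held the highest-scored member peak in EDL (percentile 95, 205 inferred tags), Sol (95.1, 205 tags) and Dia (83.3, 133 tags) and ranked at 93.3 in Quad (140 tags). Whether that region acts on Osr1 cannot be read from a nearest-gene annotation at such a distance.

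The remaining factors had at most 4 peaks in a list. Osr2, the relative of Osr1, had its promoter peak as its sole peak in each list, at percentile 72.4 in EDL, 80.4 in Quad and 57.8 in Sol, with 49.7 in Dia. Ebf1 and Ebf2, early B-cell factors that direct adipocyte progenitors, had 3 peaks each in EDL and 4 each in Quad. Ebf1 had 3 in Sol and 2 in Dia, and Ebf2 had 2 in Sol and 3 in Dia. The Ebf2 promoter ranked highest of all member promoters in EDL (80.7), Quad (94.5), Sol (87.5) and Dia (77.2), and that of Ebf1 lay between 66 in Sol and 84 in Quad. At -44436 bp from the Ebf2 TSS, 2 Quad peaks flanked a region called in the other muscles, at 95 bp and 29 bp from it. Tcf21, a factor of fibroblast progenitors, had 2 peaks in Quad and none elsewhere.

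The Osr1 sequence is the shared region with the highest mean percentile among the transcription factors (91.7), taken under its Sol peak, and the Ebf2 sequence the highest-scored one called in a single list, the Quad peak at -44749 bp (percentile 85.3). The Osr1 region held 1 AP-1 site, in capitals, and the Ebf2 region no match.
Osr1, chr12:9898527-9898733: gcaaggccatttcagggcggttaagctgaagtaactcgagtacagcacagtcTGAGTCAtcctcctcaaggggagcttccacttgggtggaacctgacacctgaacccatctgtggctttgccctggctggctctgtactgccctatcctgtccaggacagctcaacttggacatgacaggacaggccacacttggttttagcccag
Ebf2, chr14:67188449-67188637: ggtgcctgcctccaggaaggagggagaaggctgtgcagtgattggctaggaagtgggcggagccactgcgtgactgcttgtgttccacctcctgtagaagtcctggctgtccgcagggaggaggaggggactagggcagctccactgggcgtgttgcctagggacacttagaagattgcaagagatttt

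Tendon genes had the fewest peaks per gene, and nearly all were in the limb muscles. The 6 genes together had 7 peaks for EDL, 16 for Quad, 5 for Sol and 1 for Dia. The sole Dia peak was annotated to Scx, the helix-loop-helix factor that starts the tendon program. Scx had 2 peaks in EDL, 3 in Quad and 2 in Sol. All 8 Scx peaks lay within intron 3 of Bop1, a ribosome biogenesis gene in whose body Scx itself lies, so they may be assigned to either gene. The region at 3970 bp from the Scx start was called in all 4 lists, at percentile 64.5 in EDL, 78.4 in Quad and 68.6 in Sol, with 47.6 in Dia. The region at 6309 bp ranked higher, at 73.9, 88.5 and 78.8, and was not called in Dia.

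Mkx, a homeobox factor of tendon, had 2 peaks in Quad and none elsewhere, both at percentile 18, with 1 at the promoter. Fmod, a collagen-binding proteoglycan, had a promoter peak in Quad at the same percentile 18, a second Quad peak and 1 peak in EDL at percentile 1.54. Thbs4, a thrombospondin of tendon and the myotendinous junction, had 3 peaks in both EDL and Quad, in the same 3 regions, and none in Sol or Dia. Their percentiles ran from 10.1 to 40.9 in EDL and from 23.4 to 40 in Quad. Tnc encodes tenascin-C, a matrix protein of the myotendinous junction that increases on loading. It had 1 peak for EDL, 6 for Quad, 3 for Sol and none for Dia, with the promoter at percentile 38.3, 55.7 and 30.6. Tnmd, encoding tenomodulin, a defining marker of mature tendon cells, had no peak in any list. Its territory, the stretch of genome closer to its TSS than to that of any other gene, measured 105 kb.

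For the tendon genes the Scx sequence is the shared region, in its Quad peak, and the Tnc sequence the highest-scored region called in 1 muscle only, in intron 1 of Tnc in Quad (percentile 53.3). Neither held any of the 6 motifs.
Scx, chr15:76461308-76461496: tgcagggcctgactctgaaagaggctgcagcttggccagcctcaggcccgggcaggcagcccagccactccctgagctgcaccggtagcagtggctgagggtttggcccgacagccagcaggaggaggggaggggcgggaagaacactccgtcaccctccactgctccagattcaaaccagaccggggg
Tnc, chr4:64043432-64043620: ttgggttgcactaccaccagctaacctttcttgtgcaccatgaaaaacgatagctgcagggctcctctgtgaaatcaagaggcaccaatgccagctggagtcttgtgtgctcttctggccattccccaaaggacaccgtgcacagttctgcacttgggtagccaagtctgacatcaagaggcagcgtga

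The 12 matrix genes had 31 peaks in EDL, 36 in Quad and 28 in Sol, with 16 in Dia. Sparc, Fbn1, Dpt and Gsn supplied most of them. Sparc encodes a collagen-binding matricellular protein, and it had 7 peaks for EDL, 6 for Quad, 5 for Sol and 4 for Dia. None was called a promoter peak, yet each muscle had a peak in the 5′ UTR between 132 and 162 bp from the TSS, at percentile 78 in EDL, 82.5 in Quad and 82.3 in Sol, with 60.7 in Dia. Counting peaks within 1 kb on either side of a TSS raised the number of members with such a peak to 14 for EDL (43.8%, background 56.6%), 17 for Quad (53.1%, background 62.7%), 12 for Sol (37.5%, background 56.5%) and 12 for Dia (37.5%, background 55.5%).

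Fbn1, encoding fibrillin-1 of elastic microfibrils, had 5 peaks in EDL, 7 in Quad and 6 in Sol, with 4 in Dia, most of them in its introns. A region in intron 6, 77074 bp into the gene, was called in every muscle, with percentile 85 for EDL, 67.4 for Quad, 57.8 for Sol and 64.9 for Dia. Dpt, encoding dermatopontin, a proteoglycan-binding protein of the fibroblast matrix, had 6 peaks in EDL, 6 in Quad and 5 in Sol, with 3 in Dia and no promoter peak. Its region at -25901 bp was nearly level across lists, at 72.4 for EDL, 80.8 for Quad, 61.8 for Sol and 71.4 for Dia. A region at 1964 bp, in contrast, ranked at 65.8, 78.4 and 51 in the limb muscles and at 18.4 in Dia. Gsn, encoding the actin-severing protein gelsolin, whose plasma form circulates, had 4 peaks in EDL, 4 in Quad and 3 in Sol, with 2 in Dia, all within the gene. The Gsn promoter peak ranked at 61, 82.5, 58.6 and 57.6 in the same order of muscles, and an intronic region near a second Gsn start ranked higher, at 86, 90.8, 83.7 and 69.8.

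**Figure D2:**
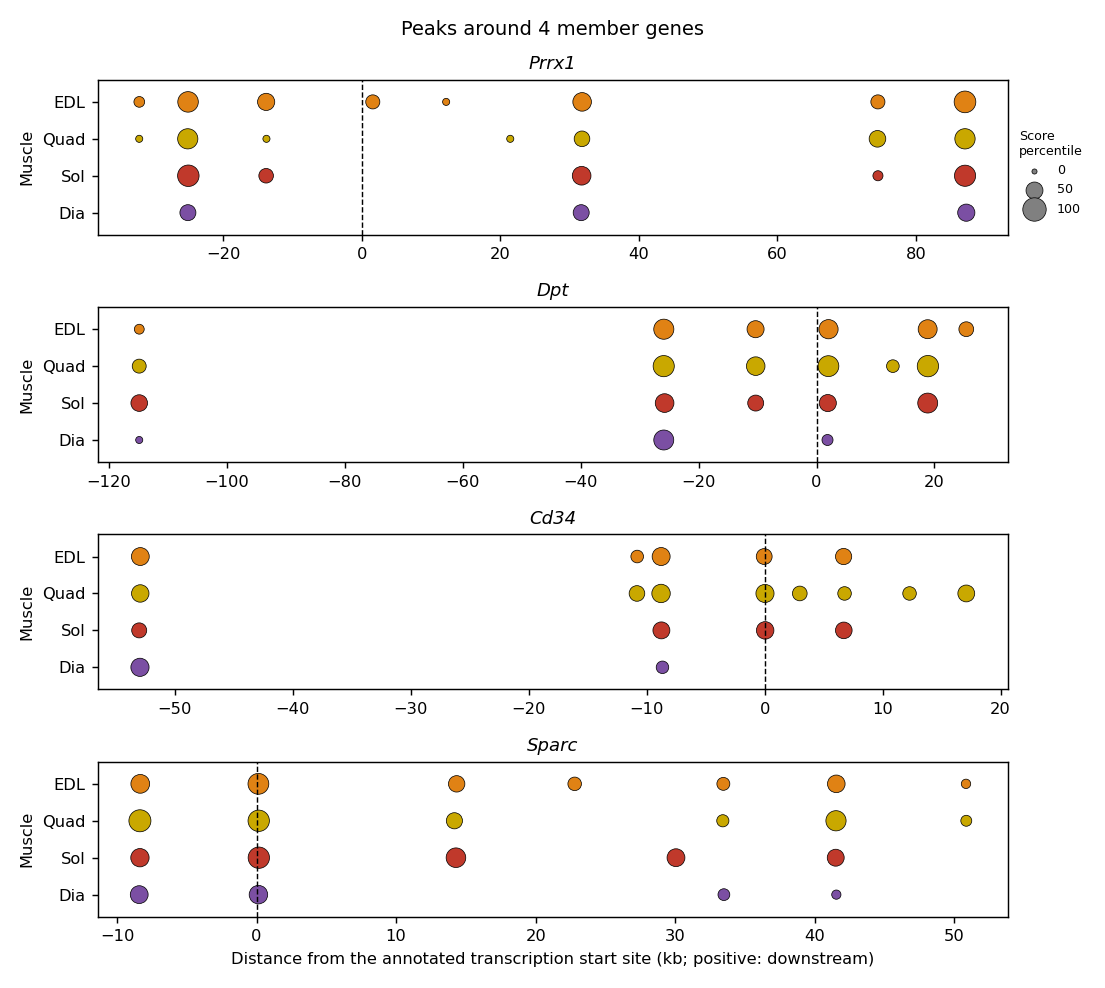
Distance of each peak from the annotated TSS of Prrx1, Dpt, Cd34 and Sparc (horizontal axis, kb; positive values lie downstream), by muscle (vertical axis), with the area of a point growing with the score percentile within its list. The Dia peaks were among those found in all or most of the other lists, such as the 3 Prrx1 regions, and the 49 member regions called in Quad alone include 3 of Cd34.

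The other matrix genes had at most 3 peaks in a list. Fn1, encoding fibronectin, had a promoter peak in every muscle, at percentile 43.2 for EDL, 40 for Quad, 34.6 for Sol and 47.6 for Dia. Loxl1, a lysyl oxidase that crosslinks elastin, had a promoter peak in Quad (68.2), Sol (60.3) and Dia (55.1), whereas its EDL peak lay in intron 2. Dcn, encoding decorin, the small proteoglycan most abundant in fibroblasts, had 2 peaks in EDL, Quad and Sol and none in Dia. At its TSS, Sol had a promoter peak (percentile 16.1), which overlapped a Quad peak annotated to the 5′ UTR at percentile 0.371. Mfap5, a microfibril protein of fibroblasts, had a promoter peak in EDL alone (39.6), beside a region at -4954 bp called in all limb muscles at 61, 74 and 67.9. Lox, encoding lysyl oxidase, had 1 promoter peak in EDL (10.1) and no peak in any other list. Bgn, encoding biglycan, had 1 peak in EDL, 3 in Quad and none in Sol, with 1 in Dia. Postn, encoding periostin, had 1 for EDL, 1 for Quad, 3 for Sol and none for Dia. Of the Sol peaks of Postn, 2 lay in the body of Trpc4. Lum, encoding lumican, had no peak in any list, although its territory next to Dcn measured 57.3 kb. The 4 proteoglycan genes Dcn, Lum, Bgn and Fmod thus had no peak above percentile 31.6 in any list.

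For the matrix genes the shared region with the highest mean percentile (82.6) was the intronic one of Gsn, shown under its Quad peak in intron 2. The highest-scored region called in 1 list was intergenic, 30055 bp from the TSS of Sparc in Sol (percentile 56.1). Neither held a match to the motifs.
Gsn, chr2:35277669-35277857: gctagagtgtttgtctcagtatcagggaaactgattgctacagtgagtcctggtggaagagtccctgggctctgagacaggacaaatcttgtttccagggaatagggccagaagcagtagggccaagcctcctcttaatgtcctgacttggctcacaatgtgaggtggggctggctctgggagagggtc
Sparc, chr11:55389922-55390128: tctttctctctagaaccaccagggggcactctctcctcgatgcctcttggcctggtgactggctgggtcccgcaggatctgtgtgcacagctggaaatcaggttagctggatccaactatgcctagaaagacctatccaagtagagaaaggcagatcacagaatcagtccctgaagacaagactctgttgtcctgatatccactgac

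Set against list length, the share of the members' peaks ran from 0.222% in Dia to 0.330% in Quad. The share was 0.309% of the EDL list (95% Wilson interval 0.252% to 0.378%), 0.330% of Quad (0.278% to 0.391%), 0.268% of Sol (0.214% to 0.334%) and 0.222% of Dia (0.168% to 0.295%). Every pair of these intervals, which cover counting error only, overlapped, those of Quad and Dia only between 0.278% and 0.295%. Overlap does not show that the shares were equal. At equal length, with the first 20000 peaks by score, they came to 0.260% in EDL, 0.225% in Quad and 0.235% in Sol, with 0.220% in Dia, from 52, 45, 47 and 44 peaks. Quad had the highest share of whole lists and the third of 4 at equal length, where 45 of its 133 member peaks remained. The higher number of member peaks in Quad was therefore carried by low-scored peaks of a longer list.

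**Figure D3:**
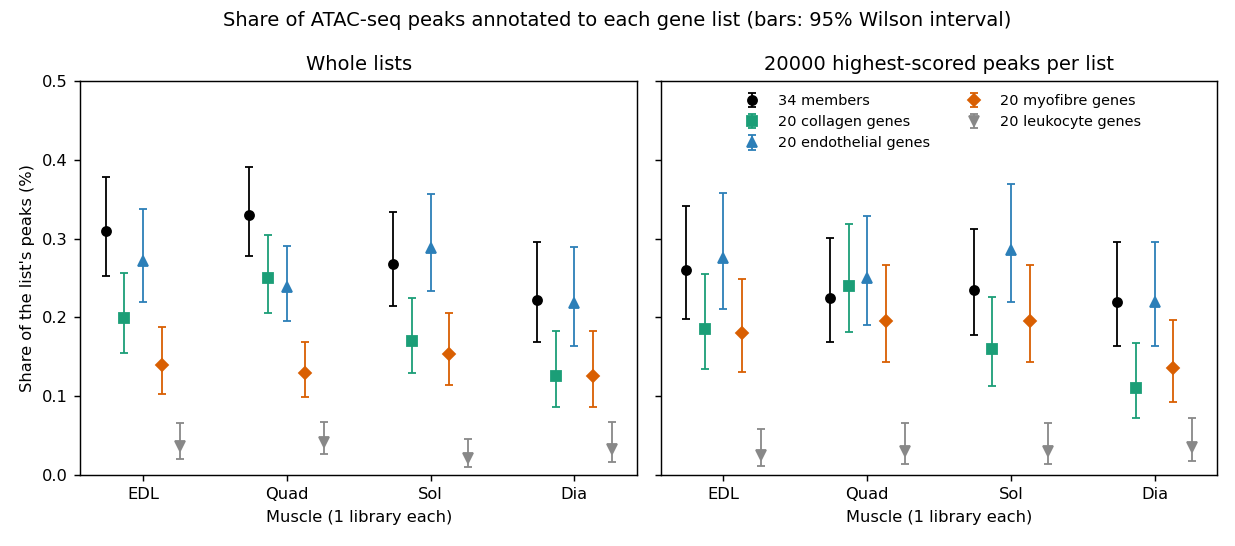
Share of each list's peaks (vertical axis, percent) annotated to the 34 members and to 4 comparison lists of 20 genes each, by muscle, for whole lists (left) and the 20000 highest-scored peaks per list (right), with 95% Wilson intervals for counting error. The members' shares lay between 0.222% and 0.330% in whole lists and between 0.220% and 0.260% at equal length.

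The comparison lists moved in their own ways. Collagen genes, which fibroblasts and, for some chains, endothelial cells and myofibres express, held 60 peaks for EDL, 101 for Quad, 49 for Sol and 27 for Dia. Their share at equal length was 0.185% in EDL, 0.240% in Quad and 0.160% in Sol, with 0.110% in Dia. The order differed from that of the members, with Quad rather than EDL at the top. Endothelial genes held 82, 96, 83 and 47 peaks, with shares at equal length from 0.220% in Dia to 0.285% in Sol. Myofibre genes held 42, 52, 44 and 27 peaks. Leukocyte genes held 11, 17, 6 and 7, and 8 of the 20, among them Cd68, Itgam, Cd14 and the 3 C1q genes, had no peak in any list. At equal length the leukocyte share was 0.025% in EDL, 0.030% in Quad and Sol and 0.035% in Dia, from 5, 6, 6 and 7 peaks. At that length Dia had the lowest share for the members (44 peaks, against 45 in Quad) and for the collagen, endothelial and myofibre lists. For leukocyte genes it had the highest, with 7 peaks against 6 in Quad and Sol. In whole lists the leukocyte share of Dia (0.0324%) was below those of EDL (0.0365%) and Quad (0.0421%). The part of cell composition in this was not tested.

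A gene with more space around it can collect more peaks. The members' territories covered 5.08 Mb, 0.186% of the genome, with a median of 95.5 kb per gene against 50.8 kb for all genes with a peak. Per Mb of territory the members had 18.3 peaks for EDL, 26.2 for Quad, 15.2 for Sol and 9.45 for Dia, against 11.1, 14.8, 10.6 and 7.92 for all peaks over the genome. The collagen genes had 14.8, 24.9, 12.1 and 6.65 peaks per Mb, and the myofibre genes 48.3, 59.9, 50.6 and 31.1. Endothelial genes had 38.5, 45.1, 39 and 22.1, and leukocyte genes 12.8, 19.7, 6.97 and 8.13. Per unit of genome the stromal genes were therefore above the genome-wide density in every muscle and below the density around myofibre and endothelial genes. Leukocyte genes were also above the genome-wide density except in Sol, so a density above it is not particular to stromal genes. No interval was computed for these densities.

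Of the 20 genes of PDGF and TGF-beta signalling, which drive fibroblast growth and matrix deposition, 17 had a peak in EDL, 18 in Quad and 18 in Sol, with 18 in Dia. Promoter peaks were found for 9, 11, 8 and 9 of them. Of all genes with a peak in any list, 81.5%, 90.8%, 81.4% and 75.3% had a peak in these muscles. A promoter peak was found for 51.8%, 56.8%, 51.5% and 50.5% of them. Whether the 20 genes differ from these shares was not tested. The ligand gene Pdgfa had 7 peaks for EDL, 15 for Quad, 5 for Sol and 2 for Dia. Tgfb1, the best known fibrotic ligand, had 1 peak in Sol and none elsewhere, while Tgfb3 had 8, 7, 3 and 2 peaks, including 2 promoter peaks in each list. The TGF-beta receptor genes Tgfbr1 and Tgfbr3 and the signal transducers Smad2 and Smad3 each had a promoter peak in every muscle, as did 40.8% of all genes with a peak. The receptors for PDGF are among the members, and neither had a peak called in more than 1 list at the same place.

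The members' peaks were distributed away from promoters. Promoter peaks were 12.9% of the members' peaks in EDL (95% Wilson interval 7.54% to 21.2%), 12% in Quad (7.54% to 18.6%) and 14.3% in Sol (8.17% to 23.8%), with 18.8% in Dia (10.2% to 31.9%). The whole lists held 30.7%, 25.5%, 31.9% and 41.3%, each above the interval of the members. A low promoter share was not particular to the members. The collagen list had 8.33%, 11.9%, 6.12% and 11.1%, and the endothelial list 14.6%, 15.6%, 15.7% and 12.8%. The myofibre list had 31%, 30.8%, 20.5% and 25.9%. Introns held 40.9% of the members' peaks for EDL, 41.4% for Quad, 41.6% for Sol and 27.1% for Dia, and intergenic sequence 43%, 41.4%, 40.3% and 47.9%. More than 50 kb from the TSS lay 31.2% of the members' peaks in EDL, 33.1% in Quad and 37.7% in Sol, with 31.2% in Dia, against 20%, 23%, 20.9% and 16.3% of the lists. The gene to which so distant a peak is annotated may not be the one it acts on. The body of the annotated gene held 47.3%, 46.6%, 48.1% and 47.9% of the members' peaks, and the body of another protein-coding gene 6.45%, 6.02%, 7.79% and 4.17%.

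In score rank, the members' promoters stood lower than promoters in general, whereas their other peaks did not stand apart. The median percentile of the members' promoter peaks was 52.1 for EDL, 56.8 for Quad, 58.6 for Sol and 57.6 for Dia. The promoter peaks of the whole lists had medians of 76.3, 81.3, 75.7 and 74.1. Medians below these were not particular to the members. Promoter peaks of the collagen genes had 37, 64.8, 56.1 and 45.3, and those of the endothelial genes 48.7, 55.7, 41.6 and 48.7. Those of the myofibre genes had 85.3, 84.2, 87.5 and 69.8. The distribution-free 95% interval of the members' median was 38.3 to 72.4 in EDL (12 peaks), 28 to 82.5 in Quad (16 peaks), 30.6 to 75.7 in Sol (11 peaks) and 47.6 to 71.9 in Dia (9 peaks), so the median of the list lay outside it in EDL and Dia, at its upper edge in Sol and inside it in Quad. Away from promoters the members had medians of 35.7, 32.4, 38.8 and 38.1, against 38.3, 40, 38.2 and 34.1 for the lists, each of which lay within the members' interval. Percentile 75 was exceeded by 12 member peaks in EDL (12.9%), 21 in Quad (15.8%) and 10 in Sol (13%), with 3 in Dia (6.25%).

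**Figure D4:**
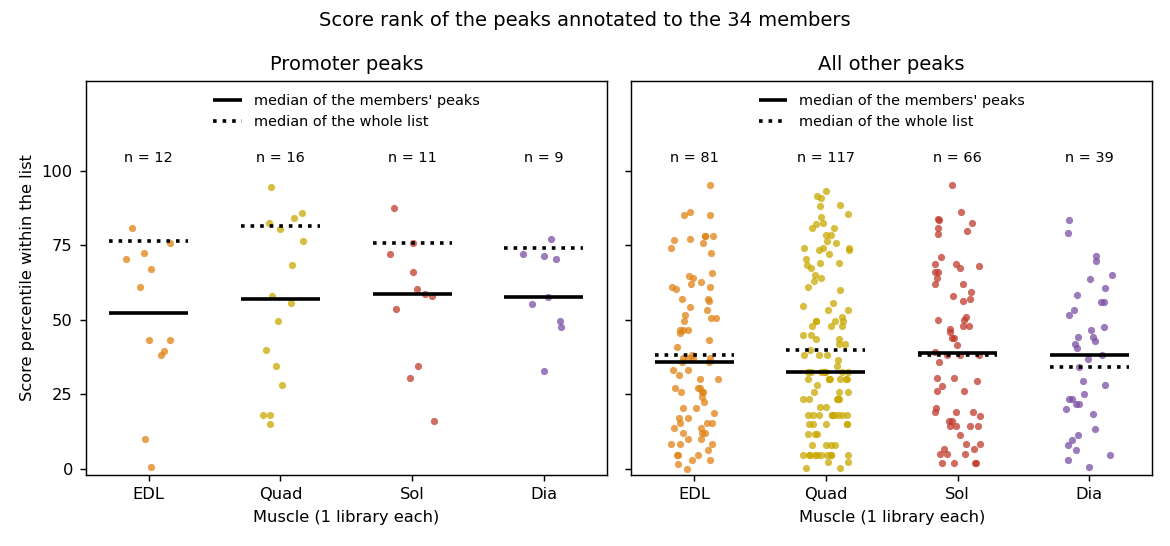
Score percentile within the list (vertical axis) of every peak annotated to the 34 members, by muscle, for promoter peaks (left) and all other peaks (right). Solid lines mark the members' medians and dotted lines those of all peaks of that class in the list; for promoters the solid lines lie between 52.1 and 58.6 and the dotted ones between 74.1 and 81.3.

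The next comparison asked whether the same stromal regions were open in each muscle. Peaks that overlapped by at least 1 bp were joined, which gave 175 regions with a member peak among 53883. Of the 175, 27 regions held a peak of all 4 lists, or 15.4% (10.8% to 21.5%), against 26.9% (26.5% to 27.3%) of all regions. Away from promoters the shares were closer, 12.9% of 155 member regions (8.51% to 19.1%) against 16% of all. Among promoter regions they were 35% of 20 (18.1% to 56.7%) against 66.1%. At promoters, which were few, the members' interval thus lay below the share of all regions, and elsewhere it included that share.

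Dia was most often the missing muscle. A peak in EDL, Quad and Sol without Dia was found in 22 member regions (12.6%, 8.45% to 18.3%), against 8.09% of all regions. Away from promoters this was 12.9% of member regions (8.51% to 19.1%) against 9.15% of all, which the interval included. The 22 regions included the Cd34 and Tnc promoters and regions of Gsn, Dpt, Sparc, Osr1, Scx and Mfap5. EDL and Quad alone shared 16 regions (9.14%, against 8.05% of all), Quad and Sol 9 (5.14%, against 3.67%), and EDL and Sol none (against 2.11%). A peak in a single list was found in 85 regions, of which 49 were in Quad (28%, against 22.7% of all regions), 17 in EDL (9.71%, against 6.71%), 14 in Sol (8%, against 8.62%) and 5 in Dia (2.86%, against 4.61%). Away from promoters the share in Quad alone was 29% (22.5% to 36.6%) against 26.9%, and in EDL alone 9.68% (5.95% to 15.4%) against 7.96%. For EDL with Quad it was 9.68% against 9.57%. Of the 85 regions, 10 were less than 500 bp from a peak called elsewhere. Regions called in 1 list had low scores, with a median percentile of 15.4 for EDL, 20.8 for Quad, 17.6 for Sol and 28.1 for Dia, while those in all 4 lists had medians of 64.5, 76.4, 61.8 and 51.6. In the whole lists the same medians were 18.8, 23.4, 16.1 and 16.7 for 1 list and 71.3, 78.4, 71.1 and 63.5 for all 4. The 20 shared regions away from promoters had a median percentile of 62.1 in EDL, 73.3 in Quad and 60.6 in Sol, with 47 in Dia, close to the 61, 67.4, 60.3 and 45.3 of all such regions. The 7 shared member promoters had medians of 70.2, 82.5, 66 and 70.4, against 80, 86.5, 79.9 and 77.2 for all shared promoters.

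**Figure D5:**
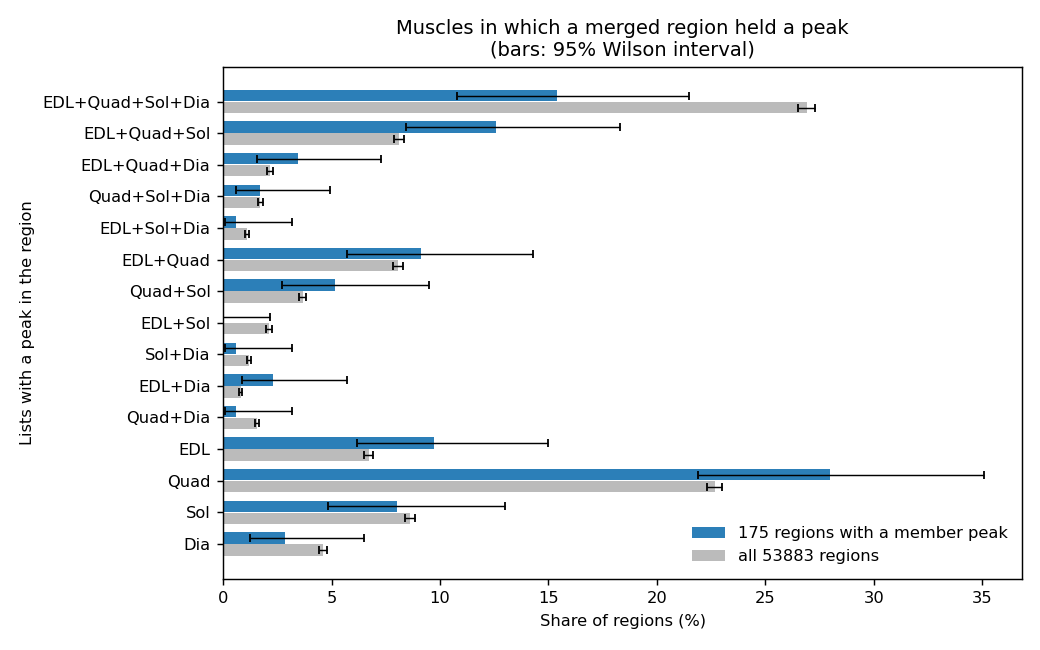
Share of merged regions (horizontal axis, percent) that held a peak of exactly the lists named on the vertical axis, for the 175 regions with a member peak and for all 53883, with 95% Wilson intervals for counting error. Regions in all 4 lists were 15.4% of the members' and 26.9% of all, and regions in Quad alone 28% and 22.7%. Promoter and other regions are counted together.

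Peak numbers were then compared between pairs of muscles in lists of 20000 peaks, where list length is equal. More peaks in EDL than in Quad were found for 10 members (31.2% of 32, background 15.1%), among them Cd34, Tcf7l2, Twist2, Prrx1, Dpt and Sparc, and more in Quad for 3 members, Osr1, Tnc and Loxl1 (9.38%, background 15.4%). More in EDL than in Sol were found for 9 (28.1%, background 16.3%) and more in Sol for 5 (15.6%, background 16.5%). Between EDL and Dia, 11 had more in EDL (34.4%, background 18.3%) and 8 more in Dia (25%, background 21.4%). The share with more peaks in EDL was above the background in all 3 pairs at this length, but not with 10000 peaks per list. There, 2 members had more in EDL than in Quad (6.25%, background 9.28%) and 5 more in Quad (15.6%, background 9.76%). Against Sol, 3 had more in EDL (9.38%, background 9.73%) and 4 fewer (12.5%, background 10.2%), and against Dia, 4 had more (12.5%, background 10.5%) and 4 fewer (12.5%, background 12.6%).

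Between Quad and Sol, 7 members had more in Quad (21.9%, background 17.2%) and 8 more in Sol (25%, background 17.5%). Quad exceeded Dia for 8 (25%, background 18.7%), and Dia exceeded Quad for 10 (31.2%, background 21.9%). Sol exceeded Dia for 9 (28.1%, background 17.8%), and Dia exceeded Sol for 8 (25%, background 19.9%). In these pairs and in that of EDL with Dia, the share lay above the background in both directions, so it gives no direction there. With 10000 peaks per list, 4 members had more in Quad than in Sol (background 10.3%) and 3 more in Sol (background 10.1%). Quad exceeded Dia for 6 members (background 10.5%) and Dia exceeded Quad for 4 (background 11.8%), while Sol exceeded Dia for 5 (background 10.2%) and Dia exceeded Sol for 4 (background 11.6%). At 20000 peaks Cd34, Scx, Dpt, Mfap5 and Gsn had more peaks in each of EDL, Quad and Sol than in Dia. In these shortened lists Pdgfrb, Fap, Ebf1, Bgn and Fbn1 had more in Dia than in each of the other 3. In whole lists Quad had more than Dia for Fap, Ebf1, Bgn and Fbn1, and EDL and Sol had more than Dia for Ebf1 and Fbn1. The cut to 20000 keeps most of the 21582 Dia peaks but fewer of the 40337 in Quad, so low-ranked Dia peaks count. At this length the muscle with fewer peaks was not the same for all stromal genes, and all 6 comparisons draw on the same 4 libraries.

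DNA motifs were searched on both strands in windows of 200 bp centred on the highest-ranked peak of each region. The letters were TGACTCA or TGAGTCA for AP-1, TGTGGTT for RUNX, ACATTCC for TEAD, TCCCNNGGG for EBF and CTTTGAT for TCF/LEF, beside the longer MEF2 site of myofibre genes. Away from promoters, AP-1 letters were present in 17 of 155 member windows, or 11% (6.96% to 16.9%), against 8.72% of 42117 windows of all regions. TEAD letters were present in 13, or 8.39% (4.97% to 13.8%), against 4.19%. MEF2 letters were present in 3, or 1.94% (0.660% to 5.54%), against 4.55%. For RUNX (3.23%, against 4.32%), EBF (3.23%, against 5.2%) and TCF/LEF (1.94%, against 2.19%) the share of all regions lay within the members' interval. TEAD was thus the sole motif of 6 for which the members' interval lay above the share of all regions. The lower end of that interval, 4.97%, was close to the 4.19% of all regions. The interval counts windows of the same gene as independent, and no allowance was made for comparing 6 motifs.

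The TEAD windows belonged to 8 genes. They were 3 regions of Fbn1, 3 of Tcf7l2, 2 of Thy1 and 1 each of Dcn, Sparc, Tcf4, Mfap5 and Bgn. AP-1 windows included the Osr1 and Cd34 regions printed above and shared regions of Twist2 and Tcf4. Among the 20 member promoter windows, the 6 motifs gave 1 match, an AP-1 site at the Tcf4 promoter. The base composition of the windows was alike, with 51.8% ± 5.79 G+C (SD, 155 windows) for the members away from promoters and 51.6% ± 6.91 (SD, 42117 windows) for all. A match shows letters in a window and is not a bound site.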

How the data were processed

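Per the labels and the study's methods, powder of frozen muscle gave nuclei for transposition and paired-end sequencing. The authors aligned reads to mm10 with Bowtie2, and HOMER kept 1 tag per position, called fixed-width peaks per list and annotated each to its nearest TSS. The Tn5 offset was not given in the sources used here. The deposited peak score is a signal, a tag count that the authors' software scaled by library size, and was ranked within each list only. Each list holds the called peaks alone, so absent signal and signal below the threshold cannot be told apart.

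Analyses used Python 3.11.15, pandas 2.3.3, scipy 1.17.1 and pysam 0.24.0. A member's peaks were those whose deposited gene name was the member. Lists were cut to 20000 peaks for equal length. Regions were joined at 1 bp overlap, and 95% intervals cover counting error only. Gene bodies came from GENCODE vM21 and sequences from RefSeq GRCm38.p6. Counting and merging were tested on simulated peaks. All members were named; those with at least 5 peaks in a list, with none, or with a promoter peak missing from some lists were described in full. Members and lists were chosen with earlier results of these data known. Alternatives were equal list lengths, a common score, a 50 kb limit, other overlaps and windows, and leaving out Tcf4.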

Additional observations from a re-analysis of the deposited data

How the results depend on the processing

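Of 131 values recomputed under other settings, 109 stayed within their counting interval or within 1.5 times the count reported. The 20000 highest-scored peaks moved Quad most, to a member share of 0.225%, 18 members with a peak, 9 with a promoter peak, a promoter share of 20% and a median percentile of 47.5, ranked within the shorter list, and raised the regions in all 4 lists to 27.8% (35.3% of all regions). Within 50 kb of the TSS the Sol share was 0.211%, and without Tcf4 no member promoter held AP-1 letters (0%). With 10000 peaks per list, members with more peaks numbered 2 in EDL against 5 in Quad, 3 in EDL over Sol, 4 in EDL against 4 in Dia, 4 in Quad against 3 in Sol, 4 in Dia over Quad, and 5 in Sol against 4 in Dia. Within 50 kb they numbered 6 in Quad over EDL against 11 in EDL, and 2 in Sol over EDL against 10 in EDL. Dia exceeded EDL for 5 against 12 in EDL, and Quad for 6 against 8 in Quad. In this setting the Dia list fell short of 20000 peaks, since 16.3% of its 21582 lay beyond 50 kb. Pairs with Dia were therefore not of equal length. No share over all genes was computed for the 50 kb setting, so these counts have no background. The shortened and 50 kb lists count fewer peaks, and the cause of the shifts was not tested. Leaving out member peaks in the body of another gene, chosen after seeing the data, moved no share or count of members with a peak beyond these limits. No paired analysis was possible because each muscle had a single library here. Depth was inferred, not read from files, and the lowest-scored peaks held 25 to 36 tags, so weaker regions were not detectable.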

Other observations

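Markers of further cell types that whole muscle can hold were counted in the same way. Their lists held 6 to 10 genes, so their peak numbers do not compare directly with those of the 34 members. Genes of mural cells, the smooth muscle cells and pericytes of vessels, had 15 peaks in EDL, 23 in Quad and 14 in Sol, with 10 in Dia, over 10 genes. The 10 satellite cell genes had 18, 27, 16 and 12 peaks. Pax7, which defines these cells, had 2, 4, 3 and 1, and Calcr had none in any list. The 8 Schwann cell genes had 10, 12, 14 and 6 peaks, of which Pmp22 held 5, 4, 7 and 1, and the defining gene Sox10 had none. The 6 adipocyte genes had 7, 10, 5 and 8 peaks, and Dia had a peak for all 6 of them, against 4 in EDL and 3 in both Quad and Sol. The 7 mesothelial genes, which mark the lining of the diaphragm, had 1, 4, 2 and 3 peaks, and Msln, Krt19 and Bnc1 had none. Lrrn4 of that list had 2 peaks in Dia and none in the limb muscles. These lists hold few genes, and no share of cells follows from them.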
